A study of Arabidopsis thaliana with 42 samples.

Results

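The 42 genes described here are a listed set of nuclear genes for antenna proteins and subunits of the 2 photosystems of Arabidopsis thaliana. They are defined by gene name, a rule that uses no expression value: LHCA1 to LHCA6, the LHCB1 to LHCB6 family, the photosystem I subunit genes from PSAD to PSAO, and the photosystem II genes of the PSBO, PSBP, PSBQ, PSBR, PSBS, PSBW, PSBX and PSBY type. All 42 were found among the 25069 loci of the deposited count table, and all 42 were among the 24839 loci tested. By role they fall into 6 antenna genes of photosystem I, 9 genes of the trimeric antenna of photosystem II, 5 genes of its monomeric antenna, 12 subunit genes of photosystem I, 6 genes of the oxygen-evolving side of photosystem II, 3 of its small membrane subunits, and PSBS.

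Chlorophyll-binding antenna proteins collect light and pass the energy to the photosystem cores, where photosystem II draws electrons from water and photosystem I passes them on to ferredoxin. The core subunits that bind the reaction-centre pigments are encoded in the plastid genome, while the antenna and most peripheral subunits are encoded in the nucleus and imported into the chloroplast. Transcription of the nuclear genes is known to follow light, the circadian clock, the GLK transcription factors and signals from the plastid.

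RNA was sequenced from 2-week-old seedlings. In every group the seeds were kept for 7 days at 4 °C in the dark, and the plants then grew on plates with 1.5% sucrose in days of 16 h light and 8 h dark at 22 °C. There are 12 libraries in 4 groups of 3: ddm1 alone, and its double mutants ddm1nrpd1, ddm1nrpe1 (ddm1npre1 in the labels) and ddm1cmt2, so the ddm1 mutation is shared by every group. DDM1 is a chromatin remodeller needed for DNA methylation in heterochromatin, NRPD1 and NRPE1 belong to RNA polymerases IV and V, which serve RNA-directed DNA methylation, and CMT2 is a chromomethylase acting outside CG sites. The labels of these RNA libraries leave out the alleles, the number of seedlings in a sample and the hour of harvest. No wild-type RNA library is among the samples of the series. The labels name no separate cultures or plants for the 3 samples of a group, so p-values reflect the spread between these samples only, and that spread may be technical.

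Libraries held between 7.84 and 24.8 M counts, and a member's count in a library ran from 358 (LHCB4.3) to 283175 (LHCB1.3). Depth differed by genotype: 7.84 to 10.2 M in ddm1, 14.9 to 24.8 in ddm1nrpd1, 16.3 to 18.8 in ddm1nrpe1 and 10.8 to 18.1 in ddm1cmt2. The ddm1 libraries were thus the shallowest, and the part of depth in the results was not tested. The transcript of the mutated gene was not lower in every case: NRPD1 stood at 14.1 ± 0.725 CPM in ddm1nrpd1 against 5.74 ± 1.27 in ddm1, NRPE1 at 58.7 ± 5.65 in ddm1nrpe1 against 13.1 ± 1.08, CMT2 at 26.8 ± 1.08 in ddm1cmt2 against 31.8 ± 2.99, and DDM1 between 11.9 and 15.9 over the 4 groups (mean ± SD, n = 3). The sources used here do not say where each lesion lies, so these levels cannot check the labels. Levels are CPM, read counts over library size after TMM scaling between libraries, and are compared between genotypes for 1 gene and never between genes, since transcript length was not used. Differences are log2 fold changes ± standard error, and rose or fell is written of a gene if edgeR's quasi-likelihood test gave an adjusted p under 0.05 over all tested loci. In whole seedlings, fewer cells of a type and less RNA per cell cannot be told apart.

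Transcripts of the 42 genes took up a larger part of the ddm1cmt2 libraries than of any other. Their share of all counts was 5.47, 6.21 and 5.93% in the 3 ddm1 libraries and 13.6, 13.0 and 11.7% in the 3 ddm1cmt2 libraries. It was 6.0, 5.29 and 6.11% in ddm1nrpd1 and 6.14, 7.34 and 8.22% in ddm1nrpe1. The ddm1cmt2 libraries lay above the other 9, the ddm1 and ddm1nrpd1 libraries overlapped, and of ddm1nrpe1 replicate 1 lay within the ddm1 range while replicates 2 and 3 lay above it. The group means were 12.8% ± 0.947 in ddm1cmt2, 7.24% ± 1.04 in ddm1nrpe1, 5.87% ± 0.376 in ddm1 and 5.80% ± 0.446 in ddm1nrpd1 (SD, n = 3).

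Within a genotype the genes varied together from library to library. In ddm1nrpe1, replicate 1 had the lowest of the 3 values for 42 of 42 genes and replicate 3 the highest for 42. In ddm1cmt2 replicate 3 was lowest for 40 genes, in ddm1 replicate 1 for 39, and in ddm1nrpd1 replicate 2 for 36. The 42 genes are therefore not separate measurements of a genotype, and results that rest on 1 of these libraries are given with and without it.

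**Figure D1:**
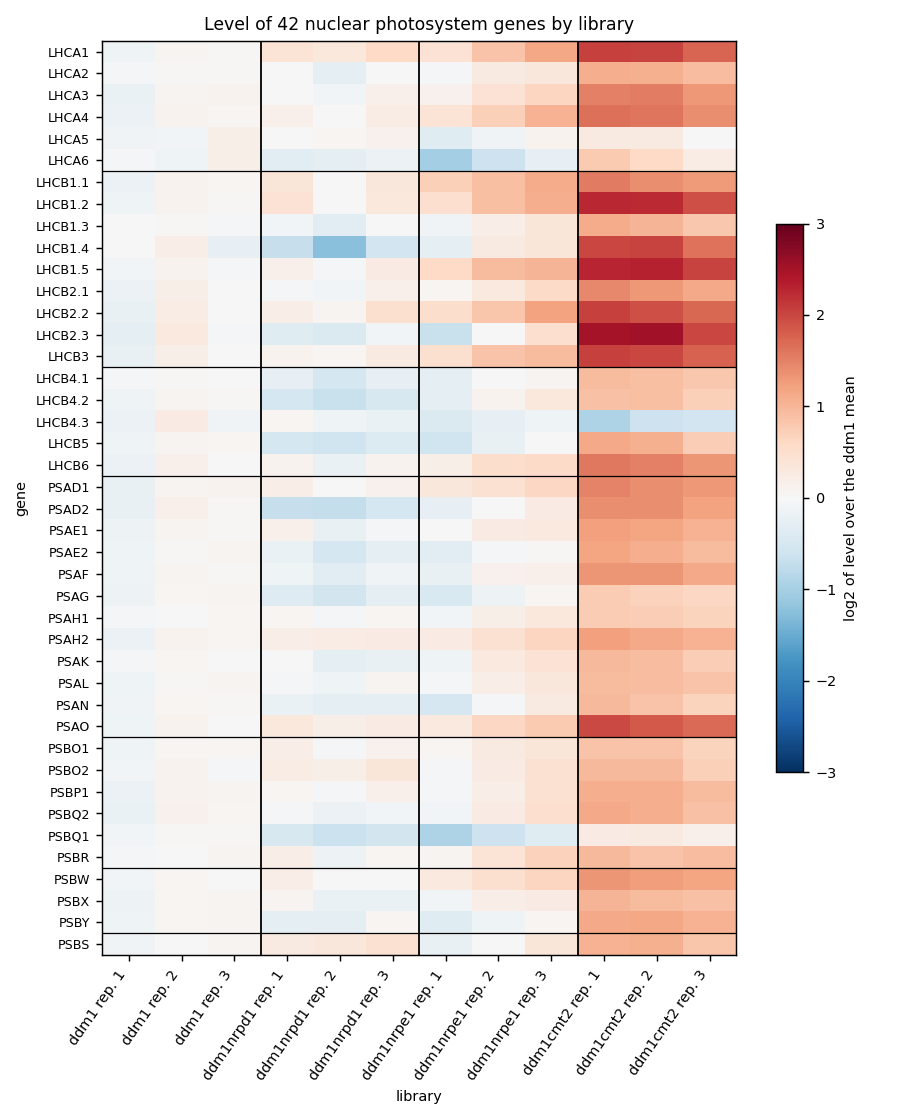
Level of each of the 42 genes (rows, grouped by role with black lines) in each of the 12 libraries (columns), as the log2 of its TMM-scaled CPM over the mean of the 3 ddm1 libraries. Red is above and blue below that mean. The ddm1cmt2 columns are red in nearly every row, LHCB4.3 being blue, and replicate 1 is the lowest of the ddm1nrpe1 columns in every row.

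In ddm1cmt2 against ddm1, 39 of the 42 genes rose and 1 fell, where 18.4% of all tested loci rose and 17.7% fell. The median log2 fold change was 1.06, against 0.00 over all tested loci. Among the 1790 loci with a mean of at least 100 CPM, 29.1% rose, so the members' count also exceeds that of abundant transcripts. The exceptions were LHCB4.3, which fell, and LHCA5 and PSBQ1, which did not pass the test. For 40 genes all 3 ddm1cmt2 libraries lay above all 3 ddm1 libraries, which held for 23.6% of all tested loci.

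The trimeric antenna of photosystem II, built from the LHCB1, LHCB2 and LHCB3 (AT5G54270) proteins, had the highest median of the classes: 9 of 9 genes rose, with a median of 1.90. LHCB1.5 (AT2G34420) stood at 2223, 2519 and 2282 CPM in ddm1, 2596, 2242 and 2769 in ddm1nrpd1, 3549.9, 4500.4 and 4719 in ddm1nrpe1 and 11479, 11546 and 9566 in ddm1cmt2. The ddm1cmt2 values lie far above the rest, with no overlap, and the gene rose 4.64-fold, a log2 fold change of 2.21 ± 0.14 (adjusted p = 1.4e-08). LHCB3, the least abundant protein type of the trimer, stood at 1392, 1831 and 1620.1 CPM in ddm1, 1748, 1673 and 1930.4 in ddm1nrpd1, 2241, 2930.1 and 3114 in ddm1nrpe1 and 6641, 6439.7 and 5508 in ddm1cmt2. Here too the ddm1cmt2 libraries stand apart, and the change was 1.94 ± 0.15 (adjusted p = 9.9e-08). LHCB1.2 (AT1G29910) was read at 1365, 1614 and 1534 CPM in ddm1 and 7257, 7099 and 5724 in ddm1cmt2, a change of 2.15 ± 0.17 (adjusted p = 1.2e-07). The other 6 rose by 2.36 (LHCB2.3, AT3G27690), 1.90 (LHCB2.2, AT2G05070), 1.90 (LHCB1.4, AT2G34430), 1.41 (LHCB1.1, AT1G29920), 1.3 (LHCB2.1, AT2G05100) and 0.98 (LHCB1.3, AT1G29930) on the log2 scale. LHCB1 genes lie in 2 tandem groups, LHCB1.2 next to LHCB1.1 next to LHCB1.3, and LHCB1.5 next to LHCB1.4, with 0 genes between neighbours in the RefSeq table. Their coding sequences are close to identical, and the sources used here do not say how reads that match several loci were counted, so reads may be divided among them.

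The monomeric antenna proteins LHCB4, LHCB5 (AT4G10340) and LHCB6 (AT1G15820) sit between the trimers and the photosystem II core. Of their 5 genes 4 rose and 1 fell. LHCB6 stood at 1276, 1579 and 1435 CPM in ddm1, 1539, 1244 and 1537 in ddm1nrpd1, 1627, 2046 and 2136 in ddm1nrpe1 and 4291, 4091 and 3572 in ddm1cmt2, and rose by 1.48 ± 0.14 (adjusted p = 8.8e-07). LHCB4.1 (AT5G01530) was at 1814, 1881 and 1838 CPM in ddm1 and 3579.7, 3475 and 3245 in ddm1cmt2, a rise of 0.90 ± 0.12 (adjusted p = 3.5e-05). LHCB5 was at 2902, 3367 and 3293 CPM in ddm1, 2201, 2094 and 2404 in ddm1nrpd1, 2102, 2750.1 and 3157 in ddm1nrpe1 and 7014, 6688 and 5352 in ddm1cmt2, which puts the ddm1cmt2 libraries highest and the ddm1nrpd1 libraries below those of ddm1. Its rise in ddm1cmt2 was 0.99 ± 0.15 (adjusted p = 1.0e-04), and LHCB4.2 (AT3G08940) rose by 0.83. LHCB4.3 (AT2G40100), a paralog of LHCB4.1 and LHCB4.2 whose regulation is known to differ from theirs, went the other way. It stood at 60.9, 81.9 and 64.0 CPM in ddm1, 71.3, 63.2 and 60.0 in ddm1nrpd1, 51.4, 58.1 and 63.2 in ddm1nrpe1 and 36.1, 44.5 and 46.2 in ddm1cmt2, so that its 3 ddm1cmt2 values are below all others, and it fell by 0.70 ± 0.13 (adjusted p = 5.9e-04) on the log2 scale.

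Of the 6 photosystem I antenna genes, 5 rose. LHCA1 (AT3G54890) to LHCA4 (AT3G47470) encode the belt of antenna proteins on photosystem I, and LHCA1 stood at 1264, 1479.5 and 1429 CPM in ddm1, 1857, 1736 and 2097 in ddm1nrpd1, 1880.5, 2506 and 3089.7 in ddm1nrpe1 and 5759, 5634 and 4646 in ddm1cmt2. Its ddm1cmt2 libraries are the highest and its ddm1 libraries the lowest of the 12, and the change was 1.94 ± 0.16 (adjusted p = 2.8e-07). LHCA3 (AT1G61520) was at 1317, 1608 and 1632 CPM in ddm1 and 4315, 4393 and 3768 in ddm1cmt2, a change of 1.45 ± 0.14 (adjusted p = 1.3e-06), and LHCA4 at 1909.5, 2287 and 2223 CPM in ddm1 and 6763, 6549 and 5667 in ddm1cmt2, a change of 1.56 ± 0.15 (adjusted p = 1.3e-06). LHCA2 (AT3G61470) rose by 1.03. LHCA5 (AT1G45474) and LHCA6 (AT1G19150), which link photosystem I to the NDH complex, had the lowest log2 fold changes of the 6. LHCA6 stood at 69.2, 65.6 and 82.0 CPM in ddm1, 57.2, 59.7 and 64.5 in ddm1nrpd1, 35.4, 47.2 and 60.6 in ddm1nrpe1 and 125, 109 and 84.6 in ddm1cmt2, highest in ddm1cmt2 and by mean lowest in ddm1nrpe1, and rose by 0.55 (adjusted p = 0.025), a call lost in 4 of 20 alternative settings (adjusted p up to 0.103). LHCA5 was at 102, 105 and 124 CPM in ddm1 and 133, 132 and 111 in ddm1cmt2, where the groups overlap, and its 0.18 did not pass the test.

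All 12 photosystem I subunit genes rose, by 0.69 to 1.85 with a median of 1.11. PSAO (AT1G08380), a subunit on the side where the mobile antenna docks, stood at 618, 737 and 684 CPM in ddm1, 852, 766 and 805 in ddm1nrpd1, 831, 1042 and 1173 in ddm1nrpe1 and 2673, 2447 and 2224 in ddm1cmt2. The ddm1cmt2 libraries are 3.6-fold higher than ddm1 by the fit, a change of 1.85 ± 0.13 (adjusted p = 5.6e-08). PSAD1 (AT4G02770), which with PSAD2 (AT1G03130) encodes the stromal subunit that docks ferredoxin, was at 697, 858 and 868 CPM in ddm1 and 2280.5, 2125 and 2001 in ddm1cmt2 and rose by 1.4 ± 0.12 (adjusted p = 3.7e-07). PSAF (AT1G31330), the subunit that binds plastocyanin on the lumen side, was at 1269.7, 1477 and 1441 CPM in ddm1 and 3498, 3513 and 3079 in ddm1cmt2 and rose by 1.27 ± 0.13 (adjusted p = 1.8e-06). In neither do the groups overlap. PSAD2 (1.33), the stromal subunit genes PSAE1 (AT4G28750, 1.16) and PSAE2 (AT2G20260, 1.09), and PSAH2 (AT1G52230, 1.14) followed. PSAH1 (AT3G16140, 0.73), PSAL (AT4G12800, 0.91), the antenna-binding subunits PSAK (AT1G30380, 0.88) and PSAG (AT1G55670, 0.69), and the lumenal PSAN (AT5G64040, 0.84) rose by less than 1 log2 unit.

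In photosystem II, 5 of 6 genes of the oxygen-evolving side rose. PSBP1 (AT1G06680), a lumenal protein that helps retain calcium and chloride at the manganese cluster, was at 1509.6, 1834 and 1802 CPM in ddm1, 1781, 1681 and 1912 in ddm1nrpd1, 1681, 1970.3 and 2360.5 in ddm1nrpe1 and 3656, 3651 and 3291 in ddm1cmt2, and rose by 1.04 ± 0.13 (adjusted p = 2.0e-05). PSBQ2 (AT4G05180), a lumenal partner of PSBP, was at 668, 830.4 and 787 CPM in ddm1 and 1666, 1631 and 1394 in ddm1cmt2, a rise of 1.04 ± 0.14 (adjusted p = 3.5e-05). PSBO2 (AT3G50820), for the manganese-stabilising protein, was at 683, 770.4 and 702 CPM in ddm1 and 1399.6, 1416 and 1187 in ddm1cmt2, a rise of 0.89 ± 0.13 (adjusted p = 7.1e-05). These 3 genes had no ddm1cmt2 library within the ddm1 range. PSBO1 (AT5G66570) rose by 0.80 and PSBR (AT1G79040), for a small protein that PSBP binding depends on, by 0.92. PSBQ1 (AT4G21280) stood at 1152, 1266 and 1265 CPM in ddm1, 882, 791 and 840.4 in ddm1nrpd1, 649, 798 and 948 in ddm1nrpe1 and 1455, 1479 and 1369.6 in ddm1cmt2, so the ddm1cmt2 values lie above those of ddm1 but by 0.23 log2 units, which did not pass the test.

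The small membrane subunits PSBW (AT2G30570), PSBX (AT2G06520) and PSBY (AT1G67740) rose, 3 of 3. PSBW, which stabilises photosystem II supercomplexes, was at 753, 841 and 813 CPM in ddm1, 925, 802 and 808 in ddm1nrpd1, 979, 1114 and 1258 in ddm1nrpe1 and 2002, 1914 and 1835 in ddm1cmt2, and changed by 1.26 ± 0.12 (adjusted p = 6.7e-07). PSBY was at 630.5, 714 and 725 CPM in ddm1 and 1515, 1554 and 1431 in ddm1cmt2, a rise of 1.12 ± 0.13 (adjusted p = 7.9e-06), and PSBX at 850.5, 987 and 994 CPM in ddm1 and 1928, 1833 and 1726 in ddm1cmt2, a rise of 0.95 ± 0.12 (adjusted p = 2.3e-05). PSBS (AT1G44575), the lumen pH sensor for the dissipation of excess light energy, stood at 788, 862 and 902 CPM in ddm1, 1023, 1073 and 1174 in ddm1nrpd1, 724, 864 and 1087 in ddm1nrpe1 and 1754, 1788 and 1519 in ddm1cmt2, and rose by 0.99 ± 0.14 (adjusted p = 4.7e-05). Its ddm1cmt2 libraries are the highest of the 12, while ddm1 and ddm1nrpe1 overlap.

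**Figure D2:**
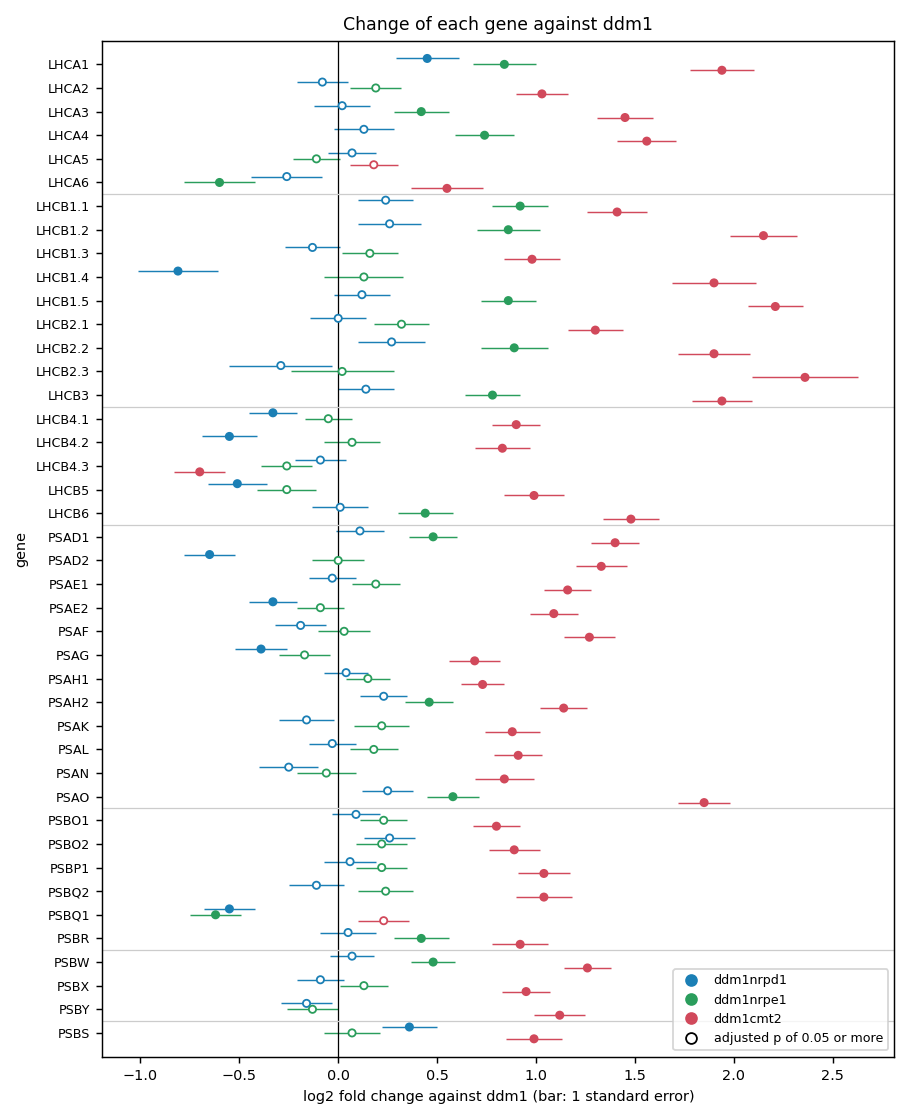
Log2 fold change of each of the 42 genes against ddm1 in the 3 double mutants, with bars of 1 standard error. Filled points passed the test at an adjusted p under 0.05. The 3 comparisons share the ddm1 libraries. In ddm1cmt2 39 points are filled to the right of 0 and LHCB4.3 to the left, and the ddm1nrpd1 and ddm1nrpe1 points lie between -0.81 and 0.92.

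In ddm1nrpd1 against ddm1, few of the genes changed and those that did mostly fell. Of the 42 genes 2 rose and 8 fell, where 22.9% of all tested loci rose and 21.7% fell, with a median of -0.01. The share fallen is near that background and the share risen is below it. LHCB1.4, in the trimeric antenna, stood at 752, 859 and 633 CPM in ddm1, 466, 313 and 504 in ddm1nrpd1, 606, 897 and 959.6 in ddm1nrpe1 and 2981, 3055 and 2332 in ddm1cmt2. Its ddm1nrpd1 values are the lowest of the 12 and it fell by 0.81 ± 0.20 (adjusted p = 0.0053), while its tandem neighbour LHCB1.5 had 0.12 ± 0.14 and did not pass the test.

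In the monomeric antenna 3 of 5 genes fell in ddm1nrpd1, where 21.7% of all tested loci fell. LHCB4.2 stood at 1204, 1404 and 1346 CPM in ddm1, 920.3, 831 and 951 in ddm1nrpd1, 1093, 1420.5 and 1631 in ddm1nrpe1 and 2423, 2459 and 2163 in ddm1cmt2, with ddm1nrpd1 lowest, and changed by -0.55 ± 0.14 (adjusted p = 0.004). LHCB5 changed by -0.51 ± 0.15 (adjusted p = 0.011) and LHCB4.1 by -0.33 ± 0.12 (adjusted p = 0.034). Of the photosystem I subunits 3 of 12 fell, and 1 without ddm1 replicate 2, ddm1 replicate 3 or ddm1nrpd1 replicate 2. That share, 25%, is near the 21.7% of all tested loci. PSAD2 stood at 424, 553 and 507 CPM in ddm1, 307, 299 and 341 in ddm1nrpd1, 415, 489 and 582 in ddm1nrpe1 and 1293, 1303 and 1144 in ddm1cmt2, where the ddm1nrpd1 libraries are below every other library, and changed by -0.65 ± 0.13 (adjusted p = 0.001). PSAG changed by -0.39 ± 0.13 (adjusted p = 0.025) and PSAE2 by -0.33 ± 0.12 (adjusted p = 0.035). In the oxygen-evolving group PSBQ1 changed by -0.55 ± 0.13 (adjusted p = 0.0022), its 3 values below those of ddm1. LHCA1 rose by 0.45 ± 0.16 (adjusted p = 0.031) and PSBS by 0.36 ± 0.14 (adjusted p = 0.043). These rises rest on single libraries: 0 genes rose without ddm1 replicate 1, ddm1 replicate 3 or ddm1nrpd1 replicate 3, and 1 rose without ddm1 replicate 2, ddm1nrpd1 replicate 1 or 2, ddm1nrpe1 replicate 2, or ddm1cmt2 replicate 1 or 2. The calls of LHCB4.1 and PSAG were lost in 4 of 20 alternative settings each and that of PSAE2 in 5. Falls numbered 5 without ddm1 replicate 2, ddm1 replicate 3 or ddm1nrpd1 replicate 2.

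In ddm1nrpe1 against ddm1, 14 of the 42 genes rose (33.3%) and 2 fell (4.76%), where 26.5% of all tested loci rose and 23.9% fell. Among loci with a mean of at least 100 CPM, 28.4% rose and 25.1% fell. The members' share risen is near these backgrounds and their share fallen is below them. The median was 0.19, against 0.01 over all tested loci. The trimeric antenna genes held 5 of the rises among 9 genes, with a median of 0.78. LHCB1.1 stood at 2756, 3324 and 3249.9 CPM in ddm1, 3973, 3088 and 3957 in ddm1nrpd1, 5073, 5826 and 6724 in ddm1nrpe1 and 9104, 8190.5 and 7480.0 in ddm1cmt2, where ddm1nrpe1 lies between the lower groups and ddm1cmt2, and changed by 0.92 ± 0.14 (adjusted p = 9.3e-05). LHCB1.5 changed by 0.86 ± 0.14 (adjusted p = 1.0e-04) and LHCB3 by 0.78 ± 0.14 (adjusted p = 3.9e-04), and LHCB1.2 (0.86) and LHCB2.2 (0.89) also rose. LHCB1.3 had 0.16, LHCB1.4 0.13, LHCB2.1 0.32 and LHCB2.3 0.02, none past the test.

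Among the photosystem I antenna genes LHCA1 changed by 0.84 ± 0.16 (adjusted p = 4.7e-04) and LHCA4 by 0.74 ± 0.15 (adjusted p = 7.9e-04) in ddm1nrpe1, LHCA3 rose by 0.42, and LHCA6 fell, with -0.60 ± 0.18 (adjusted p = 0.013). LHCB6 was the 1 monomeric antenna gene that rose, by 0.44 ± 0.14 (adjusted p = 0.015). Of the photosystem I subunits, PSAO changed by 0.58 ± 0.13 (adjusted p = 0.0018), PSAD1 by 0.48 ± 0.12 (adjusted p = 0.0037) and PSAH2, for the subunit where the mobile antenna docks, by 0.46 ± 0.12 (adjusted p = 0.0043). PSAH2 was at 429, 515 and 500.3 CPM in ddm1 and 568, 664 and 754 in ddm1nrpe1, with no overlap. In photosystem II, PSBW changed by 0.48 ± 0.11 (adjusted p = 0.0027) and PSBR by 0.42 ± 0.14 (adjusted p = 0.021), and PSBQ1 fell, with -0.62 ± 0.13 (adjusted p = 7.9e-04). The calls of PSBR, LHCA3, LHCB6 and LHCA6 were lost in 5, 4, 3 and 1 of 20 alternative settings. Without ddm1nrpe1 replicate 1, the library in which all 42 genes were lowest for that genotype, 21 genes rose, 5 of them on the oxygen-evolving side against 1 with it, and without ddm1 replicate 3 the number fallen was 1. Over all tested loci 12527 were called either way with every library, and 10377 to 12808 with 1 library left out.

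The double mutants were set against each other as the direct test of whether their levels differ. In ddm1cmt2 against ddm1nrpd1, 40 of 42 genes rose and 1 fell, where 26.0% of all tested loci rose and 24.5% fell, with a median of 1.18. In ddm1cmt2 against ddm1nrpe1 the counts were again 40 and 1, where 26.9% rose and 28.2% fell, with a median of 0.91. In both, LHCB4.3 was the gene that fell (-0.62 ± 0.13 and -0.44 ± 0.13) and LHCA5 the one that did not pass. These comparisons share the ddm1cmt2 libraries. By class the highest medians were those of the trimeric antenna, 1.80 against ddm1nrpd1 and 1.17 against ddm1nrpe1. LHCB1.4 had 2.71 against ddm1nrpd1, and LHCB2.3, the gene with the widest change among the LHCB2 genes, 2.65 there and 2.35 against ddm1nrpe1. LHCB2.3 was read at 244, 366 and 286 CPM in ddm1, 232, 222 and 281 in ddm1nrpd1, 188, 294 and 424 in ddm1nrpe1 and 1682, 1725 and 1203 in ddm1cmt2. PSAD2 was higher by 1.98 ± 0.14 (adjusted p = 1.2e-08) and 1.33 ± 0.13 (adjusted p = 7.8e-07), and PSBQ1, uncalled against ddm1, by 0.78 ± 0.13 (adjusted p = 1.0e-04) and 0.85 ± 0.13 (adjusted p = 4.1e-05). LHCB1.1 differed least among the trimeric antenna genes from ddm1nrpe1, by 0.49.

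Between ddm1nrpe1 and ddm1nrpd1, the 2 polymerase mutants, 15 of 42 genes were called higher in ddm1nrpe1, where 19.7% of all tested loci were, with a median of 0.29. By edgeR 0 fell (1, PSBS, at an unadjusted p under 0.05, and 0 with DESeq2 and with limma-voom), where 16.4% of all tested loci fell. The genes were 6 trimeric antenna genes (LHCB1.1, LHCB1.2, LHCB1.4, LHCB1.5, LHCB2.2 and LHCB3), LHCA3, LHCA4, LHCB4.2, LHCB6, PSAD1, PSAD2, PSAK, PSBR and PSBW. LHCB1.5 had 0.75 ± 0.14 (adjusted p = 6.0e-04), LHCB1.4 0.94 ± 0.20 (adjusted p = 0.0027), LHCB4.2 0.62 ± 0.14 (adjusted p = 0.0024) and PSAD2 0.65 ± 0.13 (adjusted p = 0.0014). The calls of PSBR, PSAK and LHCA3 were lost in 17, 15 and 12 of 20 alternative settings. The count depends on single libraries, being 7 without ddm1nrpd1 replicate 2 and 29 without ddm1nrpe1 replicate 1, and 9 in a fit of the 6 libraries compared. Over all tested loci 8970 were called either way with every library, and 6024 to 9390 with 1 library left out. Without ddm1nrpe1 replicate 3, 2 genes fell.

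Paralogs of a family differed among themselves, which is described by each gene's share of the family's reads within a library. The shares are of reads and not of molecules, since length was not used, and are followed across genotypes. The LHCB1 coding sequences are close to identical and the counting of reads that match several loci is not stated. Shares within LHCB1 may therefore include reads of another member. In LHCB1, LHCB1.3 held 52.5% ± 1.65 of family reads in ddm1 and 37.0% ± 0.403 in ddm1cmt2, with 47.9% ± 0.900 in ddm1nrpd1 and 41.0% ± 0.175 in ddm1nrpe1 between them (SD, n = 3). LHCB1.5 went from 14.4% ± 0.289 in ddm1 to 23.9% ± 0.573 in ddm1cmt2. The libraries of these groups do not overlap, LHCB1.5 being at 14.3%, 14.8% and 14.2% in ddm1 and at 23.4%, 24.5% and 23.9% in ddm1cmt2. LHCB1.1 had its highest share in ddm1nrpe1 (25.4% ± 0.863), and in ddm1cmt2 (18.2% ± 0.717) it was near ddm1 (19.2% ± 1.32). LHCB1.4 held 4.61% ± 0.577 in ddm1, 2.62% ± 0.313 in ddm1nrpd1 and 6.13% ± 0.331 in ddm1cmt2.

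Among the LHCB2 genes, LHCB2.3 held 11.1% ± 0.715 in ddm1 and 18.2% ± 1.69 in ddm1cmt2, while LHCB2.1 held 59.9% ± 1.04 and 47.1% ± 1.26. LHCB4.3 went from 2.13% ± 0.263 of LHCB4 reads in ddm1 to 0.730% ± 0.125 in ddm1cmt2. PSAD2 held 37.9% ± 1.17 of PSAD reads in ddm1 and 36.9% ± 1.00 in ddm1cmt2, against 26.7% ± 1.52 in ddm1nrpd1 and 30.4% ± 1.4 in ddm1nrpe1. PSBQ1 held 61.8% ± 1.45 of PSBQ reads in ddm1 and 54.2% ± 0.212, 47.0% ± 0.280 and 47.9% ± 1.50 in the 3 double mutants in that order, so that PSBQ2 held the larger share in ddm1nrpe1 and ddm1cmt2. PSAH2 held 52.8% ± 1.73 of PSAH reads in ddm1 and 59.8% ± 0.943 in ddm1cmt2. PSAE2 held 21.9% ± 0.521 of PSAE reads in ddm1 and 21.1% ± 0.263 in ddm1cmt2, and PSBO2 21.5% ± 0.948 and 22.6% ± 0.390 of PSBO reads. No test was run on shares.

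**Figure D3:**
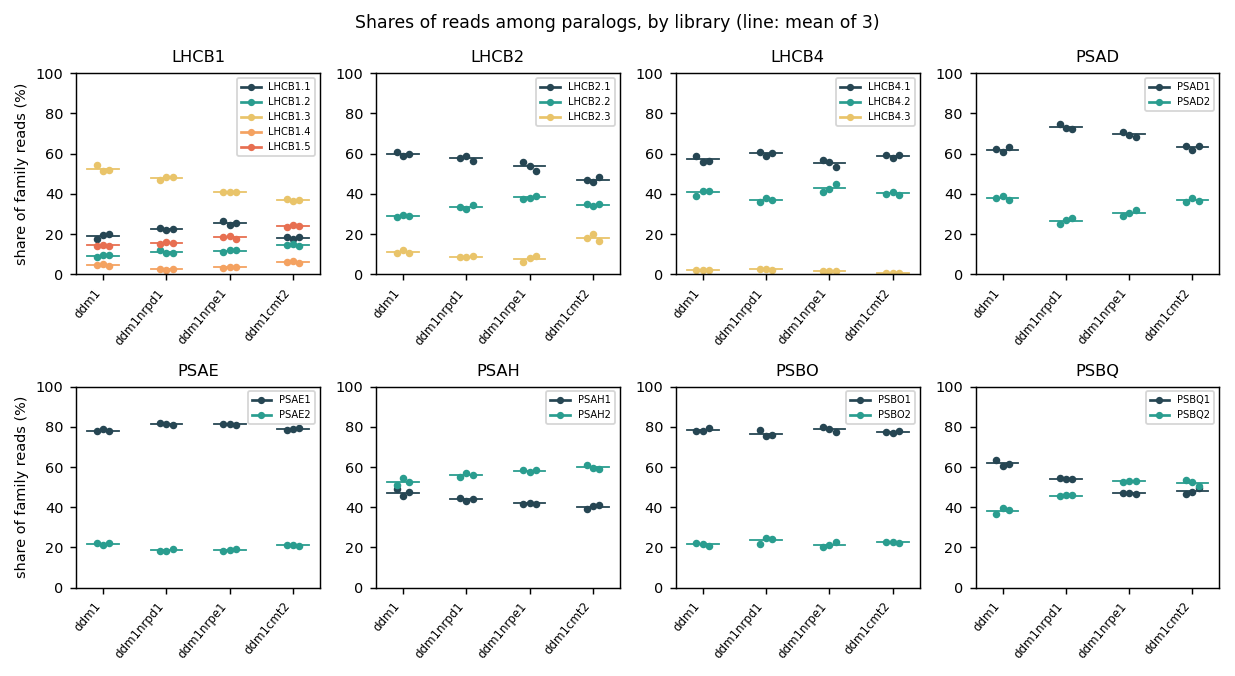
Share of each paralog in the reads of its family (percent, vertical axis) by genotype, for the 8 families with more than 1 gene. Points are single libraries and lines the mean of 3. LHCB1.3 is lower and LHCB1.5 higher in ddm1cmt2 than in ddm1, LHCB2.3 is highest in ddm1cmt2, and PSAD2 is lowest in ddm1nrpd1.

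Other genes of the photosynthetic pathway were read in ddm1cmt2 from lists chosen with earlier results of these data known, against the 18.4% of all tested loci that rose and the 17.7% that fell. Chlorophyll synthesis genes rose in 13 of 22 cases with a median of 0.40. Protochlorophyllide oxidoreductase, the light-dependent step, was among them: PORA rose by 5.29 ± 0.46, from 0.197 ± 0.262 to 7.46 ± 1.91 CPM and with 0 counts in ddm1 replicate 1, PORB by 1.12 ± 0.12 and PORC by 1.34 ± 0.17. Of the electron transport and ATP synthase genes 7 of 10 rose (median 0.42), with ATPD at 1.01 ± 0.13 and the ferredoxin reductase gene LFNR2 at 1.07 ± 0.15. That count was 4 without ddm1 replicate 1, ddm1 replicate 3, ddm1cmt2 replicate 1 or ddm1cmt2 replicate 2. Of the assembly and repair genes 8 of 11 rose (median 0.44), among them PSB27 (0.90 ± 0.13), an assembly factor of photosystem II, and the protease gene FTSH2 (0.84 ± 0.15). Antenna phosphorylation and cyclic electron flow genes rose in 4 of 7 cases, with the kinase gene STN7 at 0.70 ± 0.11 and its opposing phosphatase TAP38 at 0.59 ± 0.10. Of the import and insertion genes 4 of 8 rose and 3 fell, CPSRP43 (0.68 ± 0.11) and ALB3 (0.51 ± 0.10), which insert antenna proteins into the membrane, rising and the import receptor TOC33 (-0.71 ± 0.12) falling. Without ddm1cmt2 replicate 3, 1 import gene fell. Of the antenna-like genes 4 of 9 rose and 1 fell, a fall lost without any 1 of 6 libraries. In this list 5 rose and 1 fell in ddm1nrpd1, and 2 rose and 1 fell in ddm1nrpe1, where 3 fell without ddm1nrpe1 replicate 3. Over all tested loci 22.9% rose and 21.7% fell in ddm1nrpd1, and 26.5% and 23.9% in ddm1nrpe1, so the share of the list risen in ddm1nrpe1, 22.2%, is near the background. The early light-induced protein gene ELIP1, whose product accumulates under light stress, had 3.53 ± 0.12 in ddm1nrpd1 and 2.17 ± 0.11 in ddm1nrpe1, and its paralog ELIP2 3.26 ± 0.17 and 2.55 ± 0.17.

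**Figure D4:**
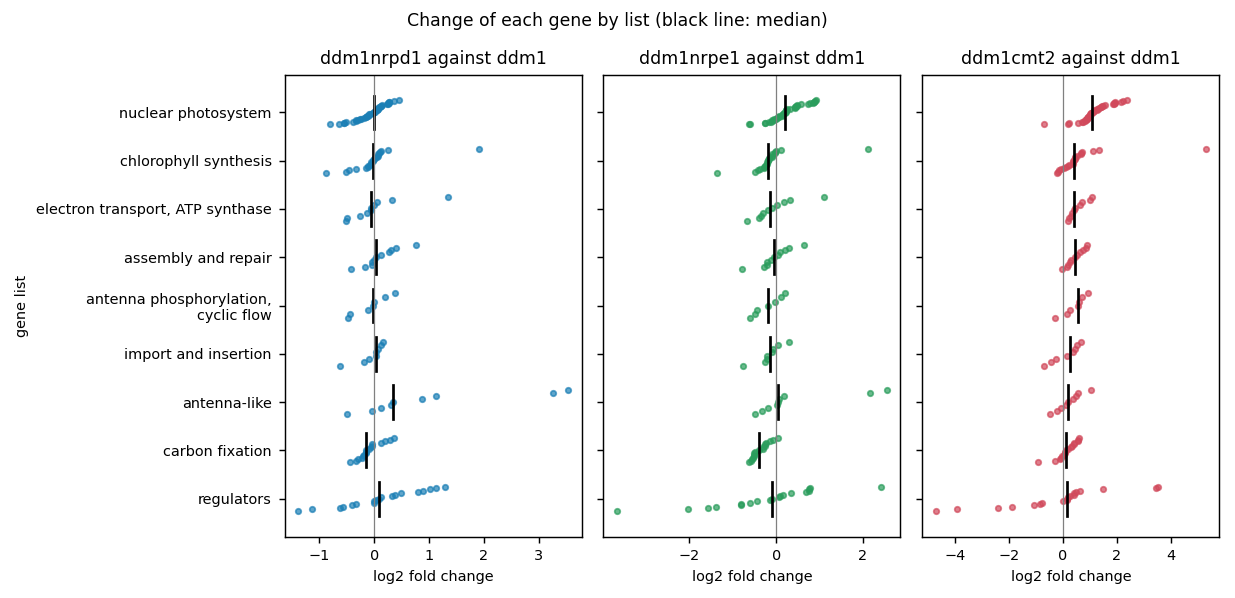
Log2 fold change against ddm1 of every gene in the nuclear photosystem set and in 8 other nuclear lists, for each double mutant, with black lines at the medians. The 3 panels have their own horizontal scales and share the ddm1 libraries. In ddm1cmt2 the nuclear photosystem median is 1.06 and those of the other lists lie between 0.12 and 0.55.

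Carbon fixation genes, used as the marker list for green tissue, had a lower median. In ddm1cmt2 6 of 17 rose and 1 fell, the Rubisco small subunit gene RBCS1B (-0.93 ± 0.21), with a median of 0.12. Of all tested loci 18.4% rose and 17.7% fell, and of loci with a mean of at least 100 CPM 29.1% and 22.6%. The list's 35.3% risen is near the share of these abundant loci, and 3 rose without ddm1 replicate 2, ddm1 replicate 3 or ddm1cmt2 replicate 2. Their summed level was 48789.5 to 52942 CPM in ddm1, 53027 to 54584 in ddm1cmt2, 44334 to 48820.0 in ddm1nrpd1 and 33919 to 45052 in ddm1nrpe1. In ddm1nrpe1 10 of 17 fell against ddm1, where 23.9% of all tested loci fell (median -0.40), and their sum was lowest in replicate 1, the library in which the 42 genes were also lowest. Whether a difference in green tissue plays a part in the results was not tested.

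Root markers were read as signs of another tissue in the seedlings. Of 14, 2 rose and 3 fell in ddm1cmt2, 1 rose and 8 fell in ddm1nrpd1, and 1 rose and 10 fell in ddm1nrpe1, all against ddm1. In ddm1cmt2 the 14.3% risen and 21.4% fallen are near the 18.4% and 17.7% of all tested loci. The 57.1% fallen in ddm1nrpd1 and 71.4% in ddm1nrpe1 lie above the 21.7% and 23.9% of all tested loci. In ddm1cmt2 the fallen numbered 1 without ddm1 replicate 1 or ddm1cmt2 replicate 2. The risen numbered 1 there without any 1 of 9 libraries, and 2 in ddm1nrpd1 without any 1 of 3. Their summed level was 1209.8 to 1604 CPM in ddm1, 1376 to 1815 in ddm1cmt2, 776 to 986 in ddm1nrpd1 and 864 to 999 in ddm1nrpe1. Log2 fold changes of the list against ddm1 ran from -7.86 to 1.62 in ddm1nrpd1, -1.68 to 2.34 in ddm1nrpe1 and -0.94 to 3.03 in ddm1cmt2. The root hair genes EXPA7 and COBL9 had 0 counts in ddm1nrpd1 replicate 1 and were above 0 in every other library. The part of root tissue in the photosystem results was not tested.

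Known regulators of these genes went both ways in ddm1cmt2, with 7 of 19 risen and 7 fallen, where 18.4% of all tested loci rose and 17.7% fell. The clock genes LHY and CCA1, whose products are known to bind LHCB promoters, had -4.71 ± 0.13 and -2.40 ± 0.12. LHY stood at 634, 595 and 714 CPM in ddm1, 550.0, 508 and 477 in ddm1nrpd1, 229, 195 and 224 in ddm1nrpe1 and 22.1, 24.8 and 27.2 in ddm1cmt2, so the ddm1cmt2 libraries lie below all others. Mean levels of CCA1 were 501 ± 35.7 CPM in ddm1 and 94.7 ± 7.99 in ddm1cmt2. BBX22, a light-signalling factor, had 3.46 ± 0.13. GLK1 and GLK2 encode activators of antenna genes. GLK1 had 1.49 ± 0.10 in ddm1cmt2, 1.29 ± 0.10 in ddm1nrpd1 and 0.78 ± 0.10 in ddm1nrpe1, and rose in each. GLK2 rose in ddm1cmt2 (0.62 ± 0.14) and fell in ddm1nrpe1 (-0.81 ± 0.14), and its 0.00 ± 0.13 in ddm1nrpd1 did not pass the test. The list went both ways in ddm1nrpe1 too, with 6 of 19 risen and 8 fallen and log2 fold changes from -3.67 to 2.41. Over all tested loci 26.5% rose and 23.9% fell there. In ddm1nrpe1, CCA1 had -2.03 ± 0.12, LHY -1.58 ± 0.11 and CGA1, a GATA factor of chloroplast development, -3.67 ± 0.26. The part of these regulators, or of the hour of harvest, in the results was not tested.

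Counts of the 20 photosystem genes encoded in the plastid did not follow those of their nuclear partners. In ddm1cmt2 against ddm1 12 of 20 fell, where 17.7% of all tested loci did, with a median of -0.78. In ddm1nrpd1 and ddm1nrpe1 19 of 20 fell in each, where 21.7% and 23.9% did, with medians of -2.62 and -2.64. Their summed level was 952, 969.6 and 1123 CPM in ddm1, 692, 565 and 526 in ddm1cmt2, 43.1, 70.4 and 66.3 in ddm1nrpd1 and 77.7, 83.0 and 43.7 in ddm1nrpe1. The gene PSBM, for a small photosystem II subunit, held a large part of this sum in ddm1 and ddm1cmt2, with means of 587 ± 25.5 CPM in ddm1, 377 ± 66.8 in ddm1cmt2, 0.950 ± 0.193 in ddm1nrpd1 and 0.802 ± 0.274 in ddm1nrpe1. Without PSBM the sum was 384, 392 and 507 CPM in ddm1, 238, 221 and 193 in ddm1cmt2, 42.2, 69.6 and 65.1 in ddm1nrpd1 and 76.8, 82.5 and 42.6 in ddm1nrpe1, so that mean sums of ddm1 were 16.9 times those of ddm1nrpd1 with PSBM and 7.25 times without. The groups fall into 3 levels with ddm1nrpd1 and ddm1nrpe1 overlapping, while the nuclear sum separates ddm1cmt2 from the rest. Some of the 20 genes had few reads, PSAI having 0 counts in ddm1nrpd1 replicate 3 and ddm1nrpe1 replicate 1. The share of counts from all plastid loci moved likewise, at 1.75% ± 0.201 in ddm1, 0.870% ± 0.0787 in ddm1cmt2, 0.232% ± 0.0960 in ddm1nrpe1 and 0.223% ± 0.0520 in ddm1nrpd1, and its part in the nuclear results was not tested. Mitochondrial loci stood in the same order, at 0.0550% ± 0.00426, 0.0424% ± 0.00491, 0.0213% ± 0.0058 and 0.0181% ± 0.00204. The lower share of counts was thus not limited to plastid loci. The part of RNA selection during library preparation in these organelle counts was not tested, so they may not reflect expression in the organelles. Without plastid and mitochondrial loci, with filter, scaling, dispersions and adjustment redone, the members' count in ddm1cmt2 was again 39 risen and 1 fallen. This refit does not test the part of organelle RNA in the nuclear results.

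**Figure D5:**
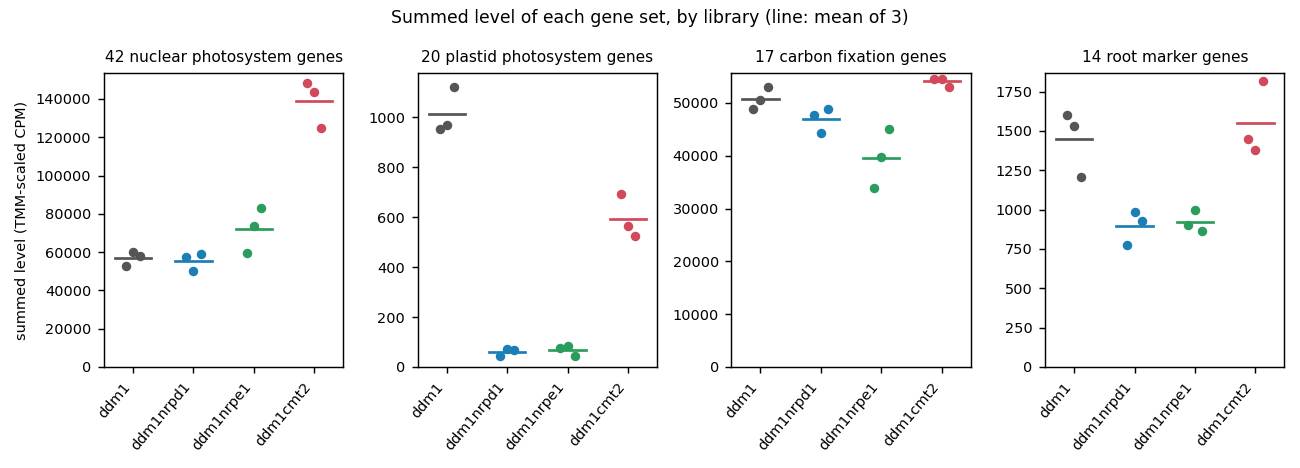
Summed level (TMM-scaled CPM, vertical axes from 0, each with its own scale) of the 42 nuclear photosystem genes, 20 plastid photosystem genes, 17 carbon fixation genes and 14 root markers in each of the 12 libraries. Points are libraries and lines the mean of 3. The nuclear sum is highest in ddm1cmt2 (124990.4 to 148506) and the plastid sum in ddm1 (952 to 1123).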

How the data were processed

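RNA-seq libraries of 4 genotypes (3 each) were used, and the other 30 samples of the series were not analysed here. The authors deposited raw read counts per locus and, beside them, CPM values that equal the counts over each column's total and were not used for tests. Per the submitters' processing notes, the build was TAIR10 and Trimmomatic, TopHat, HTSeq and edgeR were among the tools, with no roles or versions. The sources used here do not give the annotation, the strand setting or the treatment of reads matching several loci, so antisense, overlapping and paralogous genes may share reads. Names come from a RefSeq table of assembly TAIR10.1, which matched all 42 members and from which no coordinates are printed.

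Counts were fitted in R 4.3.3 with edgeR 4.0.16: filterByExpr on the 4 groups, TMM factors, robust quasi-likelihood dispersions over the 12 libraries (8 residual degrees of freedom), F tests for 6 comparisons, and Benjamini-Hochberg adjustment over 24839 loci at 0.05. The standard error is the log2 fold change over the square root of F. Replicates correlated at r = 0.974 to 0.993 and differed by more than counting noise. The rule for the members uses gene names alone, but the set, the lists and the alternatives were proposed with earlier results of these data known. All members are named, with standard errors and adjusted p-values for the 3 called members per class with the smallest adjusted p, and standard errors for at most 3 called genes per other list. Those beyond the rule (LHCB4.3, LHCA6, GLK1, GLK2, PSBM and the uncalled LHCB1.5) were added after their values were seen. Alternatives were RLE factors, DESeq2 1.42.0, limma-voom (limma 3.58.1), 2 other filters, the fit without organelle loci, the 6 libraries alone, the replicate block and each library left out, with the plastid sum without PSBM chosen after seeing the data. The steps were tested on simulated data.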

Additional observations from a re-analysis of the deposited data

How the results depend on the processing

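The counts of members in the 3 comparisons with ddm1cmt2 held under every alternative run: 38 to 39 rose against ddm1, 40 against ddm1nrpd1 and 40 to 41 against ddm1nrpe1, with 1 fallen in each. Leaving out each library in turn gave 0 to 2 risen and 5 to 8 fallen in ddm1nrpd1 against ddm1, 11 to 21 risen and 1 to 3 fallen in ddm1nrpe1 against ddm1, and 7 to 29 risen and 0 to 2 fallen in ddm1nrpe1 against ddm1nrpd1, where fewer samples were fitted. In a fit of only the 6 libraries compared, 9 rose in that last comparison. Same-numbered libraries deviated from their group means with r = -0.306 to 0.22 over 18 pairs, and others with -0.212 to 0.242 over 36, so replicate numbers were not taken to pair samples. With the replicate block, 2, 14, 39, 13, 40 and 41 members rose and 7, 2, 1, 0, 1 and 1 fell, in the order ddm1nrpd1, ddm1nrpe1 and ddm1cmt2 against ddm1, ddm1nrpe1 against ddm1nrpd1, and ddm1cmt2 against ddm1nrpd1 and ddm1nrpe1. Of 5040 values of single genes under the alternatives, 4907 kept direction and call, 100 lost the call, 33 gained it and 0 reversed. Members had 358 or more counts in each library, and the parts of counting error and of the spread between libraries in the standard errors were not separated.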
